A study of Mus musculus with 4 samples.

Results

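The 3 regions described here were assayed by quantitative real-time PCR (Q-PCR) as sites without replication origin (ORI) activity. Each goes by the number of a tiled fragment, and they are called here by their place, as the X region (the fragment between numbers 44792 and 44794, chromosome X), the Otud7b region (between 105489 and 105491, chromosome 3) and the Rnf115 region (between 106401 and 106403, chromosome 3). Their neighbourhoods were taken as all tiled 60-base probes whose fragment number lies within 20 of that of the middle fragment. This gave 174 of the 19805 probes shared by the 4 arrays, namely 54 probes in the X region, 73 in the Otud7b region and 47 in the Rnf115 region. A fragment is a stretch of the genome that was tiled without a break, and a probe is named here by its fragment number and its offset in bases within the fragment (44794/120 is the probe at offset 120 of fragment 44794, and X-middle/50 the probe at offset 50 of the middle fragment of the X region). The 3 fragments were selected on the 300–800 nt hybridisations themselves, so the values of those arrays are given as a description with no test. The 100–600 nt hybridisations did not take part in that choice.

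The cells were untreated PGK12.1, a female pluripotent mouse embryonic stem (ES) cell line, and every array set nascent strands that had been treated with λ-exonuclease against total genomic DNA of the same cells. There were 2 arrays with strands of 100–600 nt (nascent strands in Cy5) and 2 with strands of 300–800 nt (nascent strands in Cy3). Strand length, dye, array print and software version changed together, so that their parts in any difference between the fractions cannot be told apart. All values come from this one line. Each value below is the log2 ratio of nascent over genomic signal after loess normalisation within the array, so that 0 is about the level of the middle probe of an array.

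Replication starts at ORIs, from which short RNA-primed strands grow outwards in both directions. The RNA at their 5′ end protects these strands from λ-exonuclease, while broken DNA without it is degraded. Sequence near an ORI is therefore over-represented among short nascent strands relative to genomic DNA, and sequence that is copied only by forks coming from elsewhere is not. Regions that lack initiation serve as the background against which enrichment at ORIs is judged.

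The Q-PCR primers place the assayed sites on the probe map, and the probes that they touch are printed because all later values are read against them. The supplementary primer list gives 8 primers for each region. Of these, 6 for the X region, 5 for the Otud7b region and 2 for the Rnf115 region matched a probe of the neighbourhood over at least 12 bases. Bases shared with a primer are in capitals, and probes in lower case throughout lie between 2 matched probes.
For the X region the primers ran from fragment 44791 to fragment 44794, in genome order:
44791/140: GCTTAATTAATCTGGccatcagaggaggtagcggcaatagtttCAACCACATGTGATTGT
44792/80: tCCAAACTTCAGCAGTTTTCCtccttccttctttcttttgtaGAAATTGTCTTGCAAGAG
X-middle/280: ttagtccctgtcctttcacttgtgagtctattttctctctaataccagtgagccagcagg
X-middle/50: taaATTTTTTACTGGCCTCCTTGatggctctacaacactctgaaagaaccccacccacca
44794/120: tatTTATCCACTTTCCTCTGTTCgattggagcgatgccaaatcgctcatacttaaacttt
For the Otud7b region no primer matched the middle fragment, and the primers fell 3 to 5 fragment numbers further on:
105493/450: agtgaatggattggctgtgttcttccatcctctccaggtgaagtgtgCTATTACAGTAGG
105493/10: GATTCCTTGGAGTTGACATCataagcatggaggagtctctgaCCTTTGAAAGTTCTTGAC
105494/200: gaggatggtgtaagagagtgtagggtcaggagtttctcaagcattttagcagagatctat
105495/830: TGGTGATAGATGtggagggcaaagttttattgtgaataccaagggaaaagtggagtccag
105495/630: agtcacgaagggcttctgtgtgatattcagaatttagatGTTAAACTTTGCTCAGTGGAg
For the Rnf115 region both matched probes lay in the middle fragment itself:
Rnf115-middle/870: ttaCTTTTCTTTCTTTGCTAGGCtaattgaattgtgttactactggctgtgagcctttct
Rnf115-middle/710: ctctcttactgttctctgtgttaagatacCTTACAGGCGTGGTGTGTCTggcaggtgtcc

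These 12 probes are referred to as the assayed probes, 5 in the X region, 5 in the Otud7b region and 2 in the Rnf115 region. Their median C+G content was 43.3% in each region, and 4 of the 12 held a CpG. A probe of the arrays had a median C+G content of 41.7%, and 42.2% of all probes held a CpG.

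Probe positions on the build of the array design are not printed, because no genome of that build was used. The place of each neighbourhood among genes was read from 149 probes that matched a RefSeq promoter of GRCm38.p6 over at least 40 bases. Fragment numbers rose with the coordinate in all 114 neighbouring pairs of matched fragments, and within a fragment the offset fell by exactly the distance between probes in all 32 pairs. The X region lies between the matched probes of A630012P03Rik (44694/1000, chrX:52575827-52575886) and Kis2 (44957/1380, chrX:52744572-52744631). By interpolation it falls outside any annotated gene, with Gpc3, a cell-surface heparan sulphate proteoglycan, as the next coding gene on one side and Ccdc160 on the other. The Otud7b region lies between Vps45 (105371/370, chr3:96058650-96058709) and Mtmr11 (105544/60, chr3:96161798-96161857), and falls wholly within Otud7b, a deubiquitinase gene. The Rnf115 region lies between the shared promoter region of Polr3c and Rnf115 (106363/1070, chr3:96727493-96727552) and that of Cd160 (106475/310, chr3:96814522-96814581), and falls within Rnf115, a ubiquitin ligase gene. When each matched fragment was placed from its neighbours, the median error was 3 kb and 90% of errors were under 11.3 kb, so these placements are at the scale of genes and not of exons. Between the flanking matches 1 step in fragment number was on average 0.64 kb in the X region, 0.6 kb in the Otud7b region and 0.78 kb in the Rnf115 region.

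Nascent-strand signal was low at the assayed probes in both fractions. Of their 46 array values 45 lay below 0, and 11 of the 12 probes were below 0 on every array with a value, which 22.6% of all probes were. The exception was 105495/630, with 0.18 and -0.32 on the 100–600 nt arrays and -0.24 and -0.13 on the 300–800 nt arrays. The 300–800 nt values among these come from the arrays on which the regions were chosen, so their low level follows in part from that choice. By the 100–600 nt means alone all 12 were below 0, beside 48.2% of all probes. The median over the assayed probes of the X region was -0.88 in 100–600 nt strands and -0.85 in 300–800 nt strands. For the Otud7b region these medians were -0.67 and -1.46, and for the Rnf115 region they were -0.64 and -1.34. Over all probes the medians were 0.02 and 0. Under each of the 6 ways of processing the signals that were tried, all 12 assayed probes lay below the median of all probes in both fractions.

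In the 100–600 nt fraction, 10 of the assayed probes had a value on both arrays and could be tested against 0 (limma, Benjamini-Hochberg adjustment over the 15478 probes tested), and 5 were called below 0 at an adjusted p under 0.05. Over all probes 9.15% were called below 0. Unadjusted p was under 0.05 for 8 of the 10, and 17.2% of all tested probes were below 0 at that p. The lowest assayed probe was 44792/80, at -1.69 and -2.09 on the 100–600 nt arrays (mean -1.89, SD 0.28, n = 2 arrays, limma adjusted p = 8.9e-05). The same probe was at -0.99 and -0.97 on the 300–800 nt arrays. The neighbouring 44794/120 was at -1.48 and -1.12 in 100–600 nt strands (limma adjusted p = 0.00114) and at -0.57 and -0.6 in 300–800 nt strands. At both probes the 2 values of the shorter fraction lay below the 2 of the longer one.

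**Figure D1:**
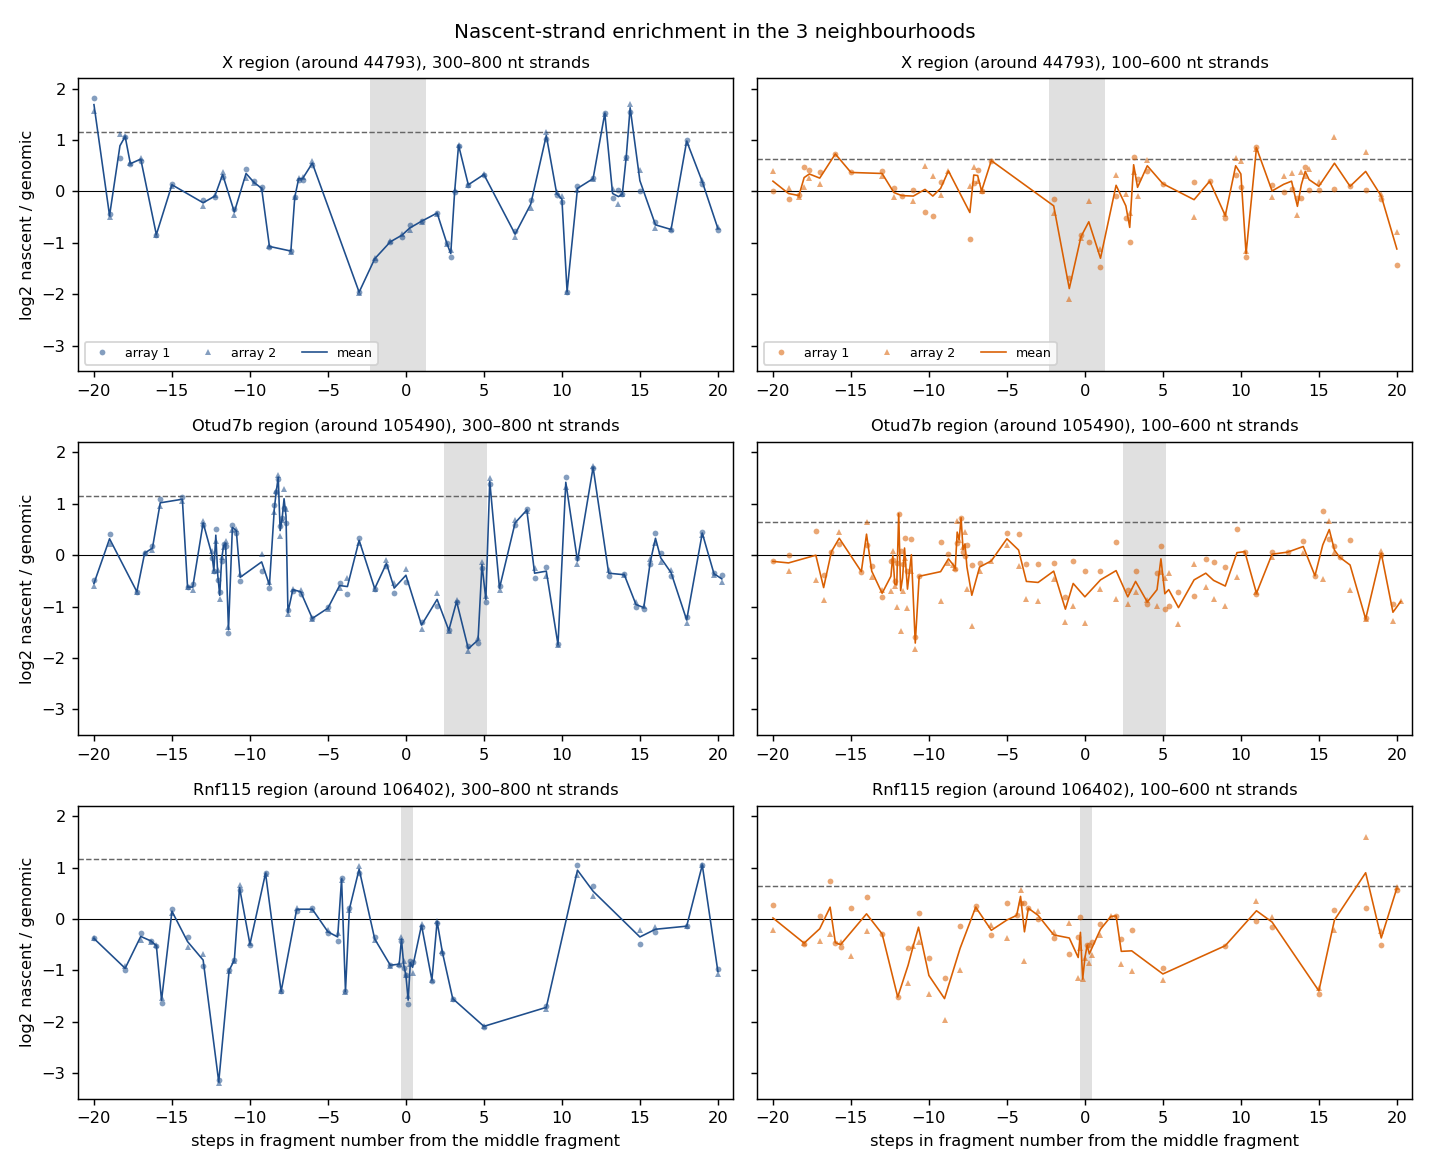
Log2 nascent over genomic signal (y axis) against steps in fragment number from the middle fragment (x axis) for the 3 neighbourhoods (the X region at the top, then Otud7b and Rnf115), with 300–800 nt strands on the left and 100–600 nt strands on the right. Symbols are single arrays, lines join the means of neighbouring probes, grey bands mark the probes matched by Q-PCR primers and dashed lines the 0.95 quantile of all probes (1.16 and 0.64). The means of the 12 assayed probes lie below 0 in both columns. Signal around them returns to 0 within a few fragments in the X region. In the Rnf115 region the unbroken stretch below 0 reaches further out only to the right and in 300–800 nt strands. Medians at 11 to 20 steps to the left were again low, at -0.52 in 300–800 nt and -0.29 in 100–600 nt strands.

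The 3 middle fragments differed in how well they were measured. That of the X region (511 bases) carried 2 probes. Probe X-middle/280 was at -0.85 and -0.91 in 100–600 nt strands (limma adjusted p = 0.0124) and at -0.88 and -0.82 in 300–800 nt strands. Probe X-middle/50 was at -0.99 and -0.18 (limma adjusted p = 0.107) and at -0.66 and -0.75. The Otud7b middle fragment (164 bases) carried the single probe Otud7b-middle/40, at -0.31 and -1.32 in 100–600 nt strands (limma adjusted p = 0.0378) and at -0.52 and -0.26 in 300–800 nt strands. Its signal was dim, with the nascent channel of the 300–800 nt arrays at percentile 1.4 of all probes and the genomic channel at percentile 2.8. The Rnf115 middle fragment (1822 bases) carried 7 probes, the most of the 3. All 7 were below 0 in both fractions, from -0.39 to -1.58 in 300–800 nt strands and from -0.26 to -1.17 in 100–600 nt strands. Of the 4 with a value on both 100–600 nt arrays only Rnf115-middle/1610 was called below 0, at -0.36 and -1.15 (limma adjusted p = 0.0426).

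The low signal in the X region was a narrow dip. In 300–800 nt strands 9 consecutive probes were below 0, from 44790/20 to 44796/730, or steps -3 to 3, which is about 3.8 kb. The stretch in 100–600 nt strands was 5 probes from 44791/140 to 44794/120, which are the assayed ones, or about 1.9 kb, and on array 1 alone 8 probes. Runs at least as long held 2.11% of all probes in 300–800 nt strands and 12.5% in 100–600 nt strands. The lowest 300–800 nt value of this neighbourhood was at the edge of the dip, 44790/20 with -1.95 and -1.97, and that probe had no value on either 100–600 nt array. Beyond the dip the medians came back to the level of all probes. At 6 to 10 steps they were 0.06 in 100–600 nt strands and -0.04 in 300–800 nt strands, and at 11 to 20 steps 0.17 and 0.16. Without the assayed probes the other 49 probes had medians of 0.14 and 0.06. Isolated low probes lay outside the dip, such as 44803/40 with -1.28 and -1.15 in 100–600 nt strands (limma adjusted p = 0.0016) and -1.95 and -1.96 in 300–800 nt strands.

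In the Otud7b region the length of the stretch in the shorter strands depended on the array. By the mean of both arrays 20 consecutive probes were below 0, from 105486/60 to 105499/40, or steps -4 to 9 and about 7.8 kb. Their median was -0.54 and their range -1.05 to -0.07. Runs of this length or more held 0.351% of all probes. On array 2 alone the stretch was 24 probes, while on array 1 alone it was broken by positive values, such as 0.26 at 105492/40 and 0.18 at 105495/630, into stretches of 4 probes at the assayed ones and 7 through the middle fragment. In 300–800 nt strands the run was 12 probes, from 105488/110 to 105495/270 or about 4.2 kb, on each array and by their mean, with a median of -0.86, and 0.727% of all probes lay in runs at least as long. It ended at 105495/10, which stood at 1.38 and 1.50 in 300–800 nt strands but at -0.99 and -0.35 in 100–600 nt strands (limma adjusted p = 0.0607 against 0). That probe held 61.7% C+G, and both its 300–800 nt channels were among the brightest, at percentiles 99.6 (nascent) and 97.8 (genomic).

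The left side of the Otud7b middle fragment held a stretch that was high in 300–800 nt strands. Fragment 105482 (2019 bases, step -8) carried 8 probes, of which 7 lay between 0.48 and 1.52. The exception, 105482/160, was at -1.07 and -1.15. Probes 105482/1512 (1.23 and 1.25) and 105482/1300 (1.48 and 1.57) passed the window rule of the study, here with windows of 800 bp kept within a fragment. The rule asks for a chi-square p under 0.005, at least 2 probes and a window mean above the 0.75 quantile. The centre probe must also be above the 0.95 quantile. The study listed no ORI at this fragment, and the listed one nearest to the middle fragment was 105455, at 35 steps. In 100–600 nt strands the 8 probes had a median of 0.16 and 3 were below 0. None of the 5 with a value on both arrays was called in either direction by limma. 105482/1512 was at -0.26 and -0.25 there, and 105482/1300 at 0.23 and 0.67.

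In the Rnf115 region the low signal reached furthest in 300–800 nt strands. The run held 16 probes from 106400/10 to 106411/50, or steps -2 to 9 and about 8.6 kb, with a median of -0.89 and a lowest value of -2.09, and 0.263% of all probes lay in runs at least as long. The 100–600 nt run was 10 probes from 106400/10 to 106403/10, about 2.3 kb, with a median of -0.54, and 1.66% of all probes lay in runs at least as long. Both runs began at the same probe. Left of the middle fragment, medians at 1 to 5 steps were 0.02 in 100–600 nt and -0.3 in 300–800 nt strands. At 6 to 10 steps they were -0.57 and 0.19. At 11 to 20 steps both fractions were low on the left, at -0.29 and -0.52, while on the right they were at -0.02 and -0.14. On array 1 alone the 100–600 nt run was 4 probes, and on array 2 alone 9. To the right, 106404/890 was at 0.05 on the only 100–600 nt array that measured it and at -1.20 and -1.18 in 300–800 nt strands. Further on, 106407/150 was low in both, at -0.96 and -1.18 (limma adjusted p = 0.004) and at -2.11 and -2.08. The lowest member of all was 106390/90, 12 steps to the left, at -3.14 and -3.20 in 300–800 nt strands and at -1.52 on the only 100–600 nt array with a value. Tiling was sparse here, since 84.4% of the fragments carried 1 probe against 65.7% of all fragments.

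The distance to the nearest probe above the 0.95 quantile varied between the 3 sites. From the middle fragment of the X region it was 20 steps to the left and 13 to the right in 300–800 nt strands, and 16 and 11 in 100–600 nt strands. From that of the Otud7b region it was 8 and 5 steps in 300–800 nt strands, and 8 and 66 in 100–600 nt strands. No primer matched that middle fragment, and the right-hand limit in 300–800 nt strands, 105495/10, lay in the same fragment as the assayed probe 105495/630. From the middle fragment of the Rnf115 region it was 65 and 49 steps in 300–800 nt strands, about 50.7 and 38.2 kb, and 39 and 18 in 100–600 nt strands. The Rnf115 distances in 300–800 nt strands depended on the processing, with 24 and 19 steps under median centring or without normalisation, 39 and 19 with normexp, 39 and 30 as a C+G residual, 39 and 40 without array 2, and 3 and 11 at the 0.90 quantile. In the X region the left distance was 18 to 32 and the right one 9 to 14 under these settings, and in the Otud7b region the right one became 10 as a C+G residual. For 100–600 nt strands the distances without array 1 were 25 and 11 steps in the X region, 34 and 48 in the Otud7b region and 44 and 18 in the Rnf115 region. Without array 2 they were 16 and 3, 8 and 15, and 16 and 23. The left limits in the X region (44777/20) and the Otud7b region (105482/760) had a value on array 1 only. With marked spots kept, these left distances became 24 and 34, and the right one of the Otud7b region 50. In the X region the left distance was 31 with median centring and 6 as a C+G residual. At the 0.90 quantile the 100–600 nt distances were 6 and 3 in the X region and 8 and 31 in the Otud7b region. In the Rnf115 region the first positive probe to the left in 100–600 nt strands, 106363/610 (0.84), lay in the same fragment as the matched promoter probe of Polr3c and Rnf115. The nearest listed ORIs were 44761 at the Gpc3 promoter (32 steps from the middle of the X region), 105455 (35 steps, Otud7b region) and 106334 (68 steps, Rnf115 region). Within 5 fragments of these the highest probes were 2.11, 1.97 and 1.73 in 300–800 nt strands, and 1.36, 1.43 and 1.07 in 100–600 nt strands. The study identified these ORIs on the 300–800 nt arrays, so the high values of that fraction follow in part from the choice.

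**Figure D2:**
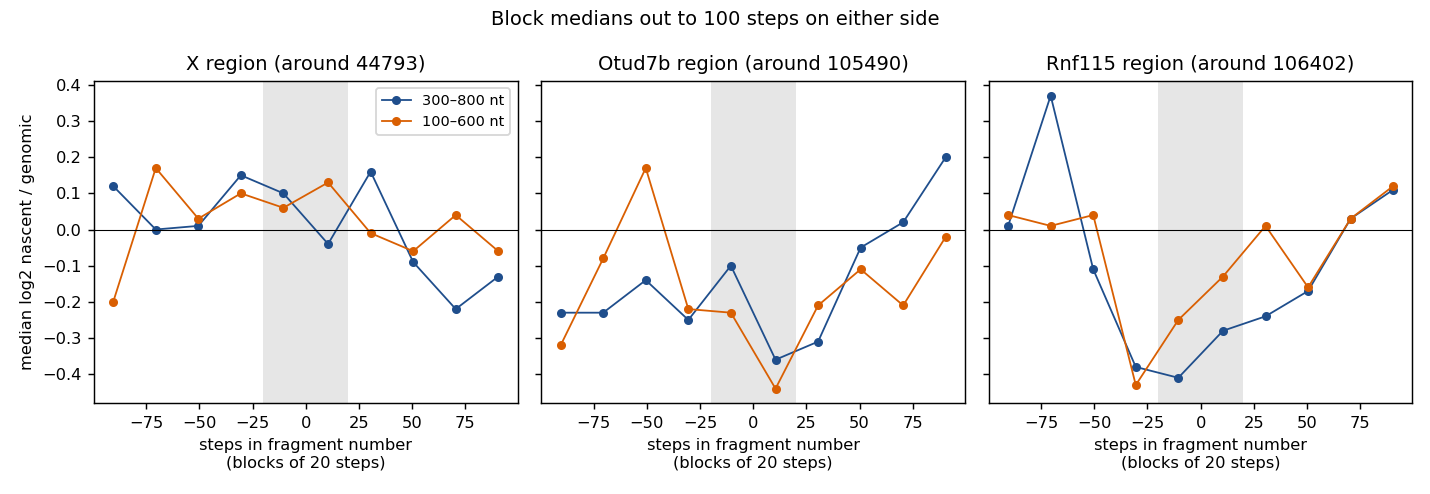
Median log2 nascent over genomic signal (y axis) in blocks of 20 fragment numbers out to 100 steps on either side of each middle fragment (x axis), for 300–800 nt (blue) and 100–600 nt strands (orange); the grey band marks the neighbourhoods. In the Rnf115 region the blocks from step -40 to -1 were at -0.38 and -0.41 in 300–800 nt strands and at -0.43 and -0.25 in 100–600 nt strands, while in the X region the blocks inside the band lay between -0.04 and 0.13. In the Otud7b region the blocks just outside the band were also below 0. They were at -0.25 and -0.31 in 300–800 nt strands and at -0.22 and -0.21 in 100–600 nt strands.

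As whole neighbourhoods, the Otud7b and Rnf115 regions were low and the X region was not. The median of the 54 probes in the X region was -0.04 in 300–800 nt strands and 0.1 in 100–600 nt strands. In the Otud7b region it was -0.34 and -0.31, and in the Rnf115 region it was -0.44 and -0.29. Of 10405 overlapping windows of the same width with at least 30 probes, centred on each fragment in turn, 1.51% had a lower 300–800 nt median than the Otud7b region and 0.26% a lower one than the Rnf115 region. In 100–600 nt strands 0.855% and 1.3% of windows were lower, while for the X region the shares were 38.2% in 300–800 nt strands and 77.1% in 100–600 nt strands. The low level around Otud7b was not confined to the neighbourhood. At steps -40 to -21 the medians were -0.25 in 300–800 nt strands and -0.22 in 100–600 nt strands. At steps 21 to 40 they were -0.31 and -0.21. Further out, block medians ran from -0.23 to 0.2 in 300–800 nt strands and from -0.32 to 0.17 in 100–600 nt strands. The neighbourhoods of the 19 other regions with Q-PCR primers had medians between -0.14 and 0.51 in 300–800 nt strands and between -0.08 and 0.26 in 100–600 nt strands. Both the Otud7b and the Rnf115 region lay below that range in each fraction, and the X region lay inside it. The study assayed those other regions as ORIs that it had identified on the 300–800 nt arrays. The order in that fraction was therefore set in part by the choice of regions.

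The 100–600 nt arrays placed these medians differently. In the Otud7b region array 1 had a median of -0.11 and array 2 of -0.6, and in the Rnf115 region they had -0.16 and -0.44. In the X region they had 0.02 and 0.13. The 300–800 nt arrays differed by at most a few hundredths, with -0.35 and -0.29 in the Otud7b region and -0.49 and -0.47 in the Rnf115 region.

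**Figure D3:**
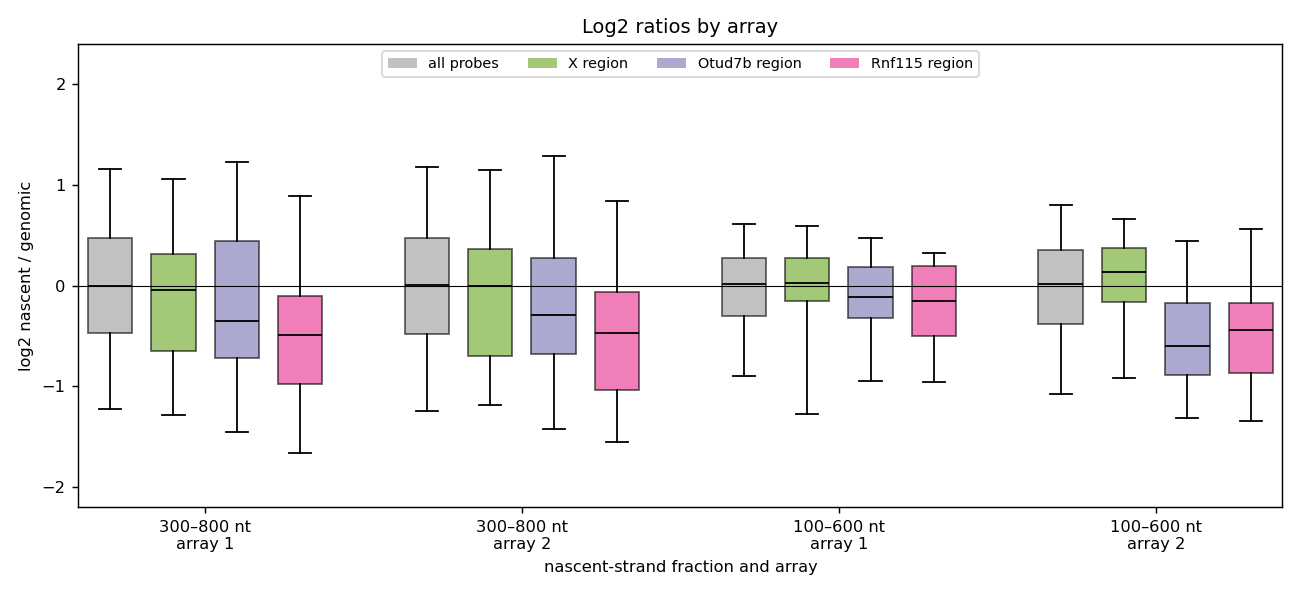
Log2 nascent over genomic signal (y axis) on each array (x axis), over all probes (grey) and over the probes of the X region (green), the Otud7b region (violet) and the Rnf115 region (pink). Boxes span the quartiles with the median as a line and whiskers the 5th to 95th percentiles; medians in the Otud7b and Rnf115 regions were below 0 on all 4 arrays, and those of the X region stayed between -0.04 and 0.13.

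Counted over all members, 63.2% of the 300–800 nt values were below 0, beside 49.8% of all probes, and 60.7% of the 100–600 nt values, beside 48.2%. By neighbourhood, the shares in 100–600 nt strands were 37.7% in the X region, 69.9% in the Otud7b region and 72.3% in the Rnf115 region. All measured arrays were below 0 at 17% of the probes in the X region, 37% in the Otud7b region and 48.9% in the Rnf115 region, against the 22.6% given above for all probes. Below the 0.05 quantile were 18 members in 300–800 nt strands and 16 in 100–600 nt strands, or 10.3% and 9.25%, where all probes have 5% by construction. Above the 0.95 quantile were 8 members in 300–800 nt strands and 5 in 100–600 nt strands, again beside 5% of all probes in each. No member was above it in both fractions, beside 0.677% of all probes.

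The tests in 100–600 nt strands covered 139 members with a value on both arrays. Limma called 23 of them below 0, or 16.5% beside the 9.15% of all probes, and 2 above 0, or 1.44% beside 3.42%. The 23 were 6 of 45 tested in the X region, 11 of 59 in the Otud7b region and 6 of 35 in the Rnf115 region. Of these 23 probes 7 lay at a middle fragment or among the assayed probes. In 300–800 nt strands 20 of the 23 were below 0 (87%), and so were 74.7% of all probes called below 0. The others were 105477/20, 105479/280 and 106393/30. The 2 called above 0 were 44804/10, at 0.87 and 0.83 (limma adjusted p = 0.0157), and 106420/40, at 0.22 and 1.59 (limma adjusted p = 0.0355). In 300–800 nt strands they were at 0.11 and 0.02, and at -0.14 and -0.13. Each was also the highest 100–600 nt probe of its neighbourhood. The spread of a probe rests on 2 arrays here, so single calls are uncertain, and on simulated data this test made more false calls than its adjusted p allows. With normexp background correction 8 members were called below 0 (5.76% beside 2.81% of all probes) and 0 above (beside 0.278%). Fits with 1 of the 100–600 nt arrays, which borrow the spread of the 300–800 nt arrays, called 57.4% of members below 0 without array 1 (85 probes, beside 35.7% of all probes) and 35.4% without array 2 (58, beside 31.2%). They called 22.3% above 0 without array 1 (33, beside 36.9%) and 25% without array 2 (41, beside 32.2%).

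None of the members high in one fraction was high in the other, and over all probes 13.5% of those above the 0.95 quantile in one fraction were above it in the other. With only 8 and 5 such members, having none in common is close to what that share would give. The 8 members above the 0.95 quantile in 300–800 nt strands ranged from -0.67 to 0.45 in 100–600 nt strands, and the 5 above it in 100–600 nt strands ranged from -0.84 to 0.71 in 300–800 nt strands. The highest 300–800 nt probes were 44773/110 (1.82 and 1.56), 105502/360 (1.69 and 1.73) and 106421/20 (1.06 and 1.05). Their 100–600 nt values were 0.01 and 0.4, 0.06 and -0.03, and -0.5 and -0.23. The lowest 100–600 nt probe in the Otud7b region was 105479/280 (-1.60 and -1.83, limma adjusted p = 0.000143), which was at 0.44 and 0.52 in 300–800 nt strands. Likewise the lowest in the Rnf115 region, 106393/30 (-1.14 and -1.96, limma adjusted p = 0.000552), was at 0.9 and 0.88. The highest 100–600 nt value in the Otud7b region was 0.81 at 105478/790, measured on 1 array and at -0.71 and -0.85 in 300–800 nt strands.

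**Figure D4:**
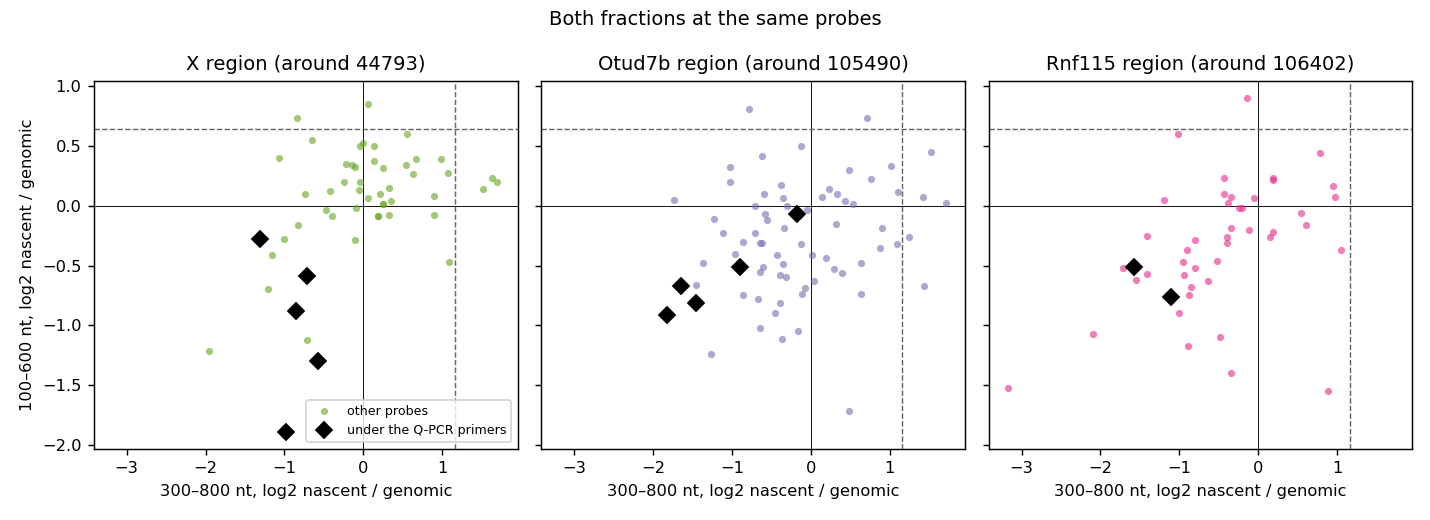
Mean log2 nascent over genomic signal at each probe in 300–800 nt strands (x axis) and 100–600 nt strands (y axis) for the 3 neighbourhoods; black diamonds are the assayed probes and dashed lines the 0.95 quantiles (1.16 and 0.64). All 12 diamonds lie in the lower left, where both fractions are below 0, and no member lies beyond both dashed lines, where 0.677% of all probes lie.

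Across probes the fractions were related to about the same degree in the neighbourhoods as elsewhere. Pearson's r between the fraction means was 0.45 in the X region (53 probes), 0.24 in the Otud7b region (73) and 0.43 in the Rnf115 region (47), and 0.36 over all 19635 probes with both values. These points share arrays and base composition, and r is given as a description. Set directly against each other in limma, 18 members were higher in 100–600 nt strands and 30 were lower, or 12.9% and 21.6% of the 139 tested, beside 16.2% and 19% of all probes. The 300–800 nt values that enter this contrast chose the regions, so these counts are a description. The 300–800 nt arrays differed by less than repeated spots and count as 1 sample, and with their mean in the fit 3 and 11 members were called, or 2.16% and 7.91% beside 1.8% and 4.39% of all probes. Of the 10 assayed probes in this fit 6 were called, 4 of them higher in 100–600 nt strands and 2 lower, with differences between -0.91 at 44792/80 and 1.03 at 44791/140. With the 300–800 nt arrays averaged 0 of the 10 were called, the lowest adjusted p being 0.109.

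The same low ratio came from different pairs of signals. At the assayed probes of the Rnf115 region the nascent signal of the 300–800 nt arrays was above the middle of all probes (median percentile 63) and the genomic signal was higher still (89.6). At those of the X region the medians were 32.1 and 67, and at those of the Otud7b region 15.6 and 43.9. In 100–600 nt strands the order was the same in each region, with 55.9 and 81.5, 17.4 and 79.3, and 27.2 and 44.4. At the lowest member, 106390/90, the nascent signal of the 300–800 nt arrays stood at percentile 4.3 and the genomic signal at 85.9. Among the 8 members above the 0.95 quantile in 300–800 nt strands, 5 had a genomic signal under the 10th percentile, beside 37% of all probes above that quantile. They included 44773/110, where the percentiles were 10.4 (nascent) and 0.6 (genomic). By contrast 105502/360 was high on a bright nascent signal (92.3) and a middling genomic one (53.6).

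In 300–800 nt strands 4 members passed the window rule, or 2.3% beside 1.79% of all probes, namely the pair in 105482 and 2 in the X region. All 4 were among the 8 above the 0.95 quantile, as the rule requires. Over all probes 35.8% of those above that quantile passed. No member passed it in 100–600 nt strands, beside 2.13%. None of the 4 was an assayed probe, and those in the X region were 44806/390 and 44807/200, both with a genomic signal under the 10th percentile. In the pair of 105482 this held for 105482/1300 (percentile 6.6) but not for 105482/1512 (77.5). The study listed no ORI at the fragments of these probes. The rule as applied here, with windows kept within a fragment, passed 355 of all probes in 300–800 nt strands, while the study listed 97 ORIs. A pass is therefore not the same as a listed ORI.

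Base composition differed somewhat between the neighbourhoods. The median C+G content was 40% in the X region, 43.3% in the Otud7b region and 38.3% in the Rnf115 region. A CpG was held by 44.4%, 39.7% and 29.8% of the probes, and a run of at least 3 G or C by 59.3%, 61.6% and 53.2%, where 68.4% of all probes held one. Pearson's r of C+G content with the log2 ratio over the 174 members was -0.16 in 300–800 nt strands and -0.03 in 100–600 nt strands, and 0 and 0.19 over all probes. By neighbourhood it was -0.3 and 0.04 in the X region, -0.13 and -0.06 in the Otud7b region and -0.18 and -0.06 in the Rnf115 region. With the C+G trend of each array removed, the median of the assayed probes of the X region was -0.79 in 300–800 nt strands and -0.87 in 100–600 nt strands, that of the Otud7b region -1.4 and -0.63, and that of the Rnf115 region -1.32 and -0.58.

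At the limit of 20 steps, values just inside and just outside were mixed. In the X region 44773/110 (0.2 in 100–600 nt and 1.69 in 300–800 nt strands) lay just inside and 44772/10 (0.26 and 0.15) just outside. On the other side 44813/150 was at -1.12 and -0.72, and the 3 probes of 44814 just outside were between 0 and 0.31 and between 0.16 and 0.82. In the Otud7b region 105470/260 (-0.12 and -0.55) lay inside and 105469/350 (0.32 and -1.65) outside. The right-hand probes inside were 105510/380 (-1.11 and -0.36) and 105510/40 (-0.9 and -0.46), and 105511/130 (0.2 and -1.1) lay outside. In the Rnf115 region 106382/60 (0.02 and -0.38) and 106422/60 (0.6 and -1.02) lay inside, and 106381/260 (-0.71 and -1.63) and 106423/10 (-0.53 and -1.61) outside.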

How the data were processed

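For each of the 4 arrays the authors deposited the signal intensity of both dyes at every spot, as Agilent Feature Extraction gave it. For 100–600 nt strands (nascent DNA in Cy5) these intensities were background-subtracted and spatially detrended. For 300–800 nt strands (nascent DNA in Cy3) they were background-subtracted and dye-normalised. The loess step of the study is not part of the deposited values.

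Log2 ratios of nascent over genomic processed signal were computed in limma 3.58.1 under R 4.3.3, without control spots and spots marked by the software, with loess (span 0.3) within each array. Repeated spots entered as their mean, and both arrays of a fraction, where both had a value, as theirs. Between 16682 and 18431 probes had a value on the 100–600 nt arrays, where 1491 and 3450 spots were left out, and all 19805 on the 300–800 nt arrays. The 100–600 nt arrays correlated at 0.594 and the 300–800 nt arrays at 0.984. The latter were on the same slide, and their SD per probe (0.092) was below that expected from repeated spots (0.111). All p-values measure the spread between hybridisations only. Precision is limited by the number of arrays.

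The members, lists and tests were chosen with earlier results of these data known. Named are the probes of the middle fragments, the highest and lowest probe of each neighbourhood in each fraction, members above the 0.95 quantile in both fractions or called above 0, genes over or next to a neighbourhood, and the nearest listed ORI. Other probes were named after their values were seen, among them the assayed probes. Limma was tested on simulated data, where it recovered most planted changes but, for the test against 0, made false calls at more than the nominal rate. Primer sequences came from the supplementary primer list, and gene names and promoters from RefSeq (GRCm38.p6), a build other than that of the array design. Alternatives covered background correction, normalisation, marked spots, C+G content, quantile, adjusted p, width, replicate block, scaling by SD and leaving out each array. The Q-PCR measurements were not used.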

Additional observations from a re-analysis of the deposited data

Results flagged for a closer look

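Of the 28 probes named by rule or assayed, 22 were compared between the fractions in limma, and 12 differed. The differences, as 100–600 nt minus 300–800 nt on the log2 scale, were -1.49 at 44773/110, 1.03 at 44791/140, -0.91 at 44792/80, -0.72 at 44794/120 and 0.78 at 44804/10 in the X region. In the Otud7b region they were -2.19 at 105479/280, 0.65 at 105493/450, 0.91 at 105494/200, 0.99 at 105495/830 and -1.69 at 105502/360. In the Rnf115 region they were -2.44 at 106393/30 and -1.42 at 106421/20. With the 300–800 nt arrays averaged into 1 sample, 5 of the 12 stayed under an adjusted p of 0.05, namely 44773/110, 105479/280, 105502/360, 106393/30 and 106421/20. All 5 were lower in 100–600 nt strands, and none was an assayed probe. Several were named for being the highest or lowest of their neighbourhood in one fraction, which favours a difference. Fraction and dye cannot be told apart here.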

How the results depend on the processing

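The medians over all members were -0.33 in 300–800 nt and -0.16 in 100–600 nt strands, and they stayed below 0 in all alternatives but the unnormalised signals, which put the 100–600 nt median at 1.31 and that of all probes at 1.46. In 300–800 nt strands the median was -0.31 with median centring, -0.41 unnormalised, -0.2 with normexp, -0.3 as a C+G residual and -0.46 within 10 steps, and between -0.3 and -0.28 without either array. In 100–600 nt strands it was -0.3 without array 1 and -0.06 without array 2.

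Members above the 0.95 quantile in 300–800 nt strands (8) became 4 within 10 steps and 18 at the 0.90 quantile. In 100–600 nt strands (5) they became 3 with median centring or unnormalised signals, 2 with marked spots kept, 1 within 10 steps and 9 at the 0.90 quantile, and 3 without array 1 and 7 without array 2. Members called below 0 (23) became 0 unnormalised, 8 with normexp and 15 within 10 steps. Members called above 0 (2) became 1 with median centring or marked spots kept, 122 unnormalised, 0 with normexp or within 10 steps, and 4 as a C+G residual. Without a 100–600 nt array the lone array was assumed to vary like the 300–800 nt arrays, which gave 85 called below 0 and 33 above without array 1, and 58 and 41 without array 2.

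No pairing of the hybridisations is stated, and replicate differences correlated at -0.0101 between the fractions. With the replicate number as a block, 30 members were higher in 100–600 nt strands in place of 18, and 36 lower in place of 30, so that the higher share went from 12.9% beside 16.2% of all probes to 21.6% beside 18.9%, and the lower from 21.6% beside 19% to 25.9% beside 22.2%. Higher calls became 126 unnormalised, 4 with normexp, 10 within 10 steps, 33 at an adjusted p under 0.10 and 6 with arrays scaled by their SD. Lower calls became 5 unnormalised, 11 with normexp and 13 within 10 steps. Averaging the 300–800 nt arrays, chosen after seeing the data, gave 3 and 11. With an array left out higher calls ran from 3 to 76 and lower calls from 11 to 68, with 51 and 68 without array 1 of 100–600 nt, 76 and 51 without array 2, and the low ends without either 300–800 nt array. For normexp the 300–800 nt files hold median in place of mean signals. The cause of these changes was not tested. Probes missing on a 100–600 nt array, such as both assayed probes of the Rnf115 region, could not be tested there.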
